A study of Homo sapiens with 6 samples.

Results

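Transcripts of 10 cell surface antigens used to describe hematopoietic progenitors, SPN (which encodes CD43), PTPRC (CD45), CD34, CD44, CD33, CD38, CD226, PROM1 (CD133), THY1 (CD90) and PROCR (CD201), were measured in differentiating cells of the H1 human embryonic stem cell line with and without MSX2. The genes were chosen by name as surface antigens, with earlier results of these data known, and all 10 were found among the 58364 rows with values in the expression table. Of them, 7 had a mean of at least 0.5 FPKM (fragments mapped to a gene, scaled to its transcript length and to all mapped fragments) over the 6 libraries and were tested together with all other rows that passed this filter, 15895 in all. PTPRC, CD33 and CD38 fell below it.

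The 2 WT libraries came from unedited H1 cells and the 4 MSX2-/- libraries from 2 clonal lines, each sequenced in replicates 1 and 2. All libraries were collected on day 8 of stepwise hematopoietic differentiation, in which activin A and BMP4 were followed by VEGF and bFGF. The MSX2-/- lines were made by lentiviral CRISPR/Cas9 with guides to the second exon of MSX2, puromycin selection and growth from single cells, so each line is a single clone and no clone of unedited cells stood beside them. CD31+ sorting appears in the sample labels of the knockout libraries alone, whereas the study's methods give it for both genotypes. The labels' growth text also mentions H1 with or without HAND1 overexpression, and gives no HAND1 state for any library. The labels do not say whether replicates were separate cultures, so p-values measure the spread between these libraries, which may be technical.

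Blood progenitors arise in culture, as in the embryo, from hemogenic endothelium, flat endothelial cells that round up and detach in the endothelial-to-hematopoietic transition. CD34 is shared by endothelium and early progenitors, CD43 appears on the surface as cells commit to blood, and CD45 follows on more mature blood cells. CD44, a receptor for the matrix sugar hyaluronan, marks endothelium on its way through this transition.

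CD31 is the product of PECAM1, which was listed at 258 and 218 FPKM in the WT libraries and at 208, 209, 186 and 230 FPKM in MSX2-/- cells, so the defining marker of the sort was high in every library. MSX2 itself, a homeobox transcription factor, was listed at 3.64 and 1.44 FPKM in the WT libraries and at 18.0, 5.62, 31.8 and 6.69 FPKM in the libraries labelled MSX2-/-. The level of MSX2 mRNA therefore does not check the labels, and every direction below rests on them. MSX2 was higher by 1.99 on the log2 scale (SE 0.69, limma adjusted p = 0.309, 0.0107 with the replicate block). Replicate number separated the libraries widely: 15.6% of tested genes were higher and 18.9% were lower in replicate 2 than in replicate 1 at an adjusted p under 0.05 in limma. Same-numbered libraries deviated together, so each comparison is given from a fit of genotype alone and from a fit with the replicate number as a block. Summed FPKM ran from 555286 to 617120 a library. Read depth is unknown, and no counting error can be attached to a value.

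**Figure D1:**
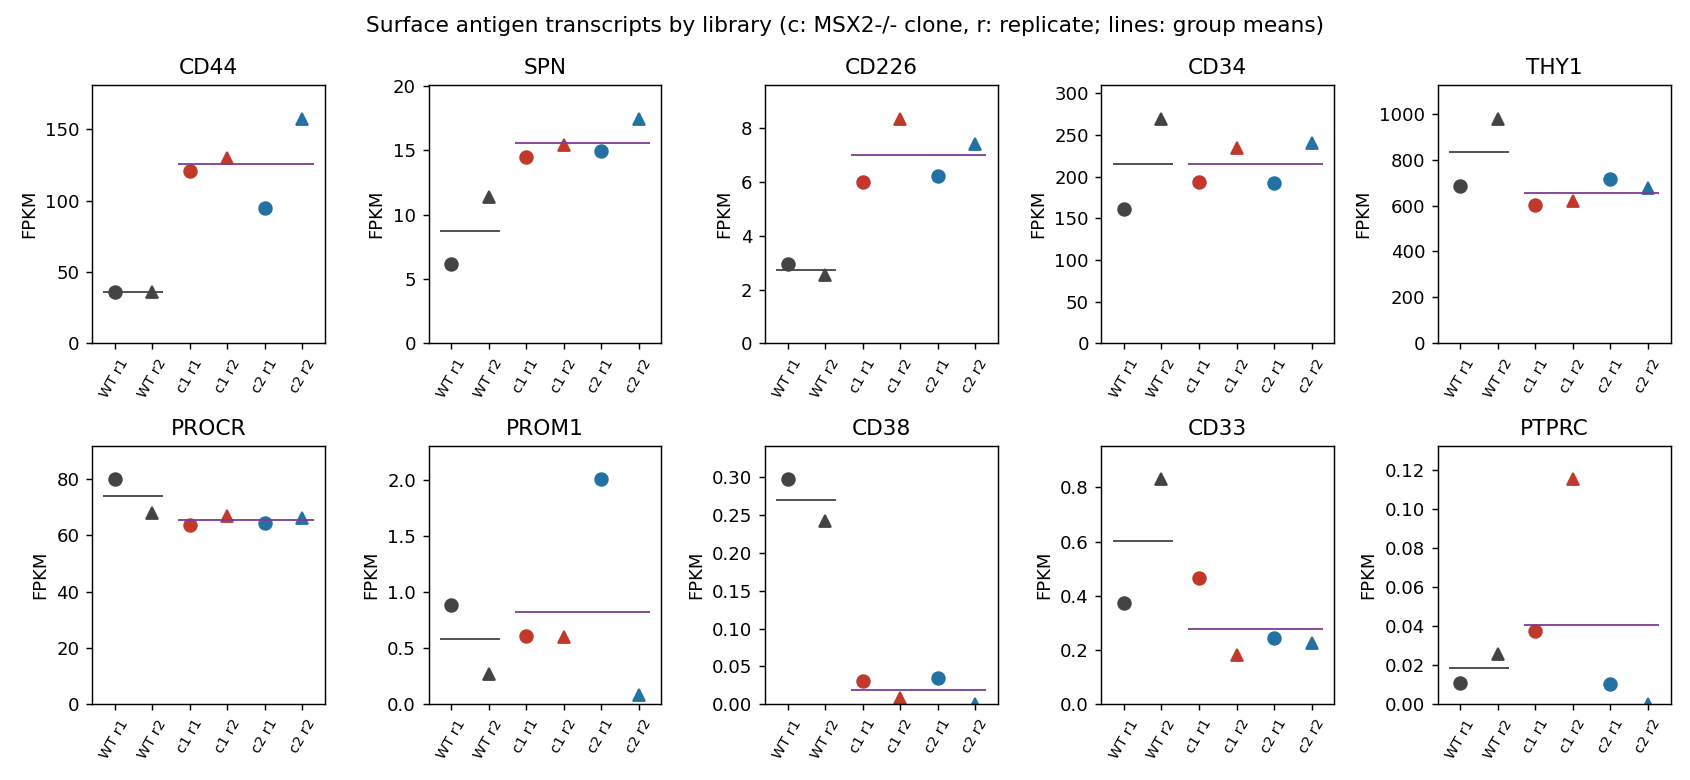
FPKM (linear axes from 0, a scale for each gene) of the 10 antigens in the 6 libraries, with circles for replicate 1, triangles for replicate 2 and lines at group means. CD44, SPN and CD226 lie higher in all 4 MSX2-/- libraries than in either WT library, PROCR and CD38 lie lower, and the other 5 overlap.

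CD44 was the surface antigen with the largest difference among those tested. It was listed at 35.9 and 36.2 FPKM in the WT libraries and at 121, 130, 94.6 and 157 FPKM in MSX2-/- cells (clone 1 replicates 1 and 2, then clone 2 replicates 1 and 2, the order used throughout). The WT libraries were close together and every MSX2-/- library stood well above them, with means of 36.1 ± 0.17 (SD, n = 2) and 126 ± 26.0 FPKM (SD, n = 4), a ratio of 3.48. On the log2(FPKM + 1) scale used for all fold changes, CD44 rose by 1.75 (SE 0.20, limma adjusted p = 0.0172; with the replicate block 0.00226). Without the block, leaving out either WT library or either clone 1 library ended this call, with the fold change between 1.63 and 1.88 over all 6 omissions and adjusted p between 0.0275 and 0.136. Without the filter on low values adjusted p was 0.0507. With the block, leaving out each library kept adjusted p between 0.00506 and 0.0265.

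SPN encodes CD43, the mucin-like sialoglycoprotein of leukocytes. Its level was 6.19 and 11.3 FPKM in WT and 14.4, 15.4, 15.0 and 17.4 FPKM in MSX2-/- cells. The 4 MSX2-/- libraries were tightly grouped and all lay above both WT libraries, which differed from each other by 1.83-fold. The means were 8.76 ± 3.63 (SD, n = 2) and 15.6 ± 1.32 FPKM (SD, n = 4). The log2 fold change of 0.81 (SE 0.23) did not pass in limma without the block (adjusted p = 0.213) and passed with it (SE 0.16, adjusted p = 0.0282). Without WT replicate 1 the fold change was 0.42 and without WT replicate 2 it was 1.20, so the size of the SPN difference hung on which WT library was used. With the block, the SPN call was lost without WT replicate 1 (adjusted p = 0.102), clone 1 replicate 1 (0.0858), clone 2 replicate 1 (0.0654) or clone 2 replicate 2 (0.0779), and also when no filter was applied (0.113).

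CD226, also known as DNAM-1, is an adhesion receptor of lymphocytes and platelets that binds the nectin-like proteins PVR and NECTIN2. It was listed at 2.95 and 2.53 FPKM in the WT libraries and at 5.98, 8.34, 6.23 and 7.39 FPKM in MSX2-/- cells. Again no MSX2-/- library came down to the WT levels, whose mean of 2.74 ± 0.30 FPKM (SD, n = 2) compared with 6.98 ± 1.10 (SD, n = 4), a ratio of 2.55. Its log2 fold change of 1.09 (SE 0.18) lay just outside the threshold without the block (limma adjusted p = 0.0537) and inside it with the block (SE 0.15, adjusted p = 0.00889). With the block CD226 passed whichever library was left out (adjusted p between 0.0264 and 0.0488), and without the filter its adjusted p was 0.054.

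Across the 7 antigens tested, the fit of genotype alone called 1 higher, CD44, and none lower, beside 0.963% and 0.321% of all 15895 genes. With the block it was 3 higher, CD44, CD226 and SPN, and none lower, where 6.11% of all genes were higher and 3.74% lower. In all genes tested, 12.1% had every MSX2-/- library above both WT libraries and 9.19% had every one below. Among the 7 antigens these numbers were 3 and 1.

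**Figure D2:**
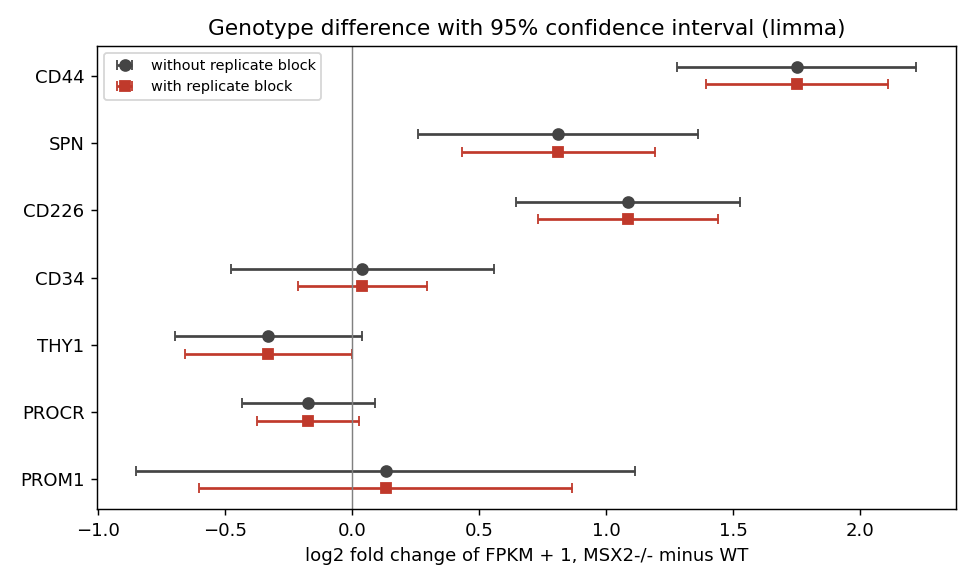
Log2 fold change of FPKM + 1, MSX2-/- minus WT, for the 7 antigens tested, with 95% confidence intervals from limma without the replicate block (circles) and with it (squares). The intervals of CD44, SPN and CD226 lie above 0 in both fits and those of CD34, PROM1 and PROCR span 0 in both. That of THY1 spans 0 without the block and lies just below 0 with it.

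CD34, the sialomucin by which progenitors and endothelium are sorted together, ran in order of replicate rather than genotype. It was listed at 161 and 269 FPKM in the WT libraries and at 194, 234, 193 and 240 FPKM in MSX2-/- cells, so all 4 MSX2-/- libraries lay between the WT libraries. The means were nearly equal, 215 ± 76.8 (SD, n = 2) and 215 ± 25.4 FPKM (SD, n = 4). The genotype difference was 0.04 on the log2 scale, with a 95% confidence interval from -0.48 to 0.56 (adjusted p = 0.982 in limma) and from -0.21 to 0.29 with the block. Replicate 2 was higher than replicate 1 by 0.44 (SE 0.098, adjusted p = 0.0178), which was 1 of the 7 antigens, beside 15.6% of all genes. Without the filter on low values that call was lost (adjusted p = 0.0741). In replicate 1 both clones were above WT, by 0.27 and 0.26, and in replicate 2 both were below it, by -0.20 and -0.16.

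The level of SPN relative to CD34, a ratio formed after the values were seen, was 0.0385 and 0.0421 in WT and 0.0744, 0.0659, 0.0776 and 0.0726 in MSX2-/- cells. The WT libraries, which differed in both genes, were close in this ratio, and all 4 MSX2-/- libraries were above them. Relative to PECAM1, SPN was at 0.0240 and 0.0520 in WT, which were then far apart, and at 0.0692, 0.0736, 0.0802 and 0.0758 in MSX2-/- cells. For CD44 relative to CD34 the ratios were 0.224 and 0.134 in WT and 0.622, 0.555, 0.491 and 0.655 in MSX2-/- cells.

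THY1, the GPI-anchored antigen CD90, was by far the most abundant of the 10. It was listed at 687 and 978 FPKM in the WT libraries and at 603, 619, 717 and 675 FPKM in MSX2-/- cells, ranking 113 among all rows by its mean. The 2 groups overlapped, since clone 2 replicate 1 exceeded WT replicate 1. The log2 difference of -0.33 had a 95% confidence interval from -0.70 to 0.04 (limma adjusted p = 0.489). With the block the interval ran from -0.66 to -0.0017, just below 0, and the limma adjusted p was 0.186.

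PROCR encodes the endothelial protein C receptor, a marker of hematopoietic stem cells and of the vessel wall. Its values were 79.9 and 67.9 FPKM in WT and 63.5, 67.0, 64.4 and 66.2 FPKM in MSX2-/- cells. All 4 lay below both WT libraries, but WT replicate 2 was within 1 FPKM of the highest of them. The log2 difference was -0.17 (95% confidence interval -0.43 to 0.09, limma adjusted p = 0.655, 0.247 with the block).

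PROM1, a membrane-protrusion protein sorted as CD133, was scarce and uneven. It was listed at 0.886 and 0.273 FPKM in the WT libraries and at 0.605, 0.599, 2.00 and 0.0804 FPKM in MSX2-/- cells, and the clone 2 libraries held both the highest and the lowest value. The interval of its log2 difference, -0.85 to 1.11, allows a change in either direction (difference 0.13, limma adjusted p = 0.964).

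**Figure D3:**
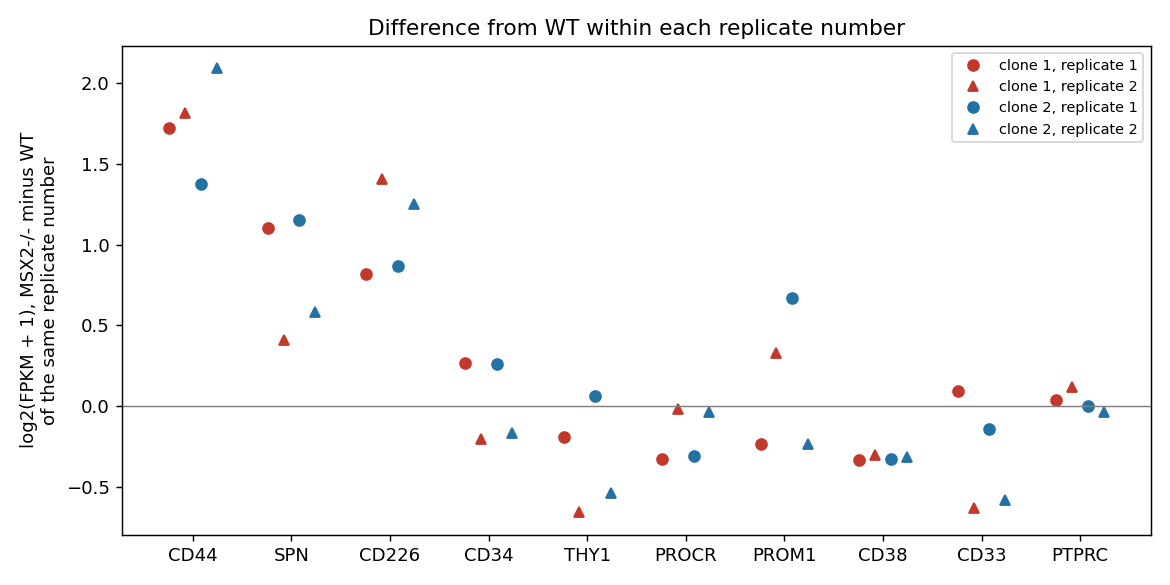
Difference in log2(FPKM + 1) between each MSX2-/- library and its same-numbered WT library, for all 10 antigens (circles replicate 1, triangles replicate 2, colours for the clones). All 4 points of CD44, SPN and CD226 are above 0, all 4 of CD38 and of PROCR are below 0, and CD34 is above 0 in replicate 1 and below it in replicate 2.

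The antigens of later blood cells were listed near 0. PTPRC, the tyrosine phosphatase CD45 that is carried by nearly all mature leukocytes, was at 0.0110 and 0.0258 FPKM in WT and at 0.0374, 0.115, 0.0101 and 0 FPKM in MSX2-/- cells, with both groups overlapping. CD33, a sialic-acid-binding receptor of myeloid cells, was at 0.372 and 0.830 FPKM in WT and at 0.464, 0.183, 0.245 and 0.225 FPKM in MSX2-/- cells, which also overlapped. When all 30029 rows above 0 in any library were fitted without the filter, neither differed by the test (PTPRC 0.03, 95% confidence interval -0.09 to 0.15, limma adjusted p = 0.875; CD33 -0.31, -0.69 to 0.07, adjusted p = 0.673).

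CD38, an ectoenzyme that breaks down NAD and whose low expression is used to define the most immature progenitors, was at 0.297 and 0.243 FPKM in WT and at 0.0313, 0.00877, 0.0347 and 0 FPKM in MSX2-/- cells. Every MSX2-/- value was lower than both WT values. In the fit without the filter CD38 fell by 0.32 on the log2 scale (SE 0.031, limma adjusted p = 0.0351, 0.0224 with the block), where 0.2% of all rows were lower without the block and 0.659% with it. Among those 30029 rows, 7.31% had every MSX2-/- library below both WT libraries. All CD38 values were under 0.3 FPKM, the number of reads behind them is unknown, and the gene was not tested where the filter applied.

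The clones were then set apart, each against WT. CD44 was higher by 1.77 in clone 1 and by 1.73 in clone 2, SPN by 0.76 and 0.87, and CD226 by 1.11 and 1.06. With 3 groups and no block, no antigen passed in either clone, beside 0.00629% of all genes in each. With the block CD44 (adjusted p = 0.0155 and 0.0150) and CD226 (0.0451 and 0.0486) passed in both clones in limma, beside 3.46% of genes in clone 1 and 3.71% in clone 2. No antigen differed between the clones (0% of all genes), and the 95% confidence intervals of the clone difference ran from -0.66 to 0.59 for CD44, from -0.63 to 0.84 for SPN and from -0.66 to 0.56 for CD226 without the block. No antigen passed the test of a genotype effect that differs between replicate numbers, which 0.0189% of all genes passed. At an unadjusted p under 0.05, limma called 1.42% of genes between clones and 11.4% in the test by replicate number. In the latter, 4 of the 7 antigens had such a p, CD34 (unadjusted p = 0.00514), SPN (0.0175), PROCR (0.0353) and THY1 (0.0365), with adjusted p from 0.334 to 0.413. WT had 1 library per replicate number in that test. Its p-values therefore hold the spread between the clones and none between WT libraries, so they cannot show whether a single WT library deviated.

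Promoters are shown for CD44 and CD226, which were higher with the block, for CD34, which was not, and for PTPRC, which was listed near 0. Other antigens that were not higher (PROCR, PROM1) or were listed near 0 (CD33, CD38) have windows that are not shown. Each window runs from 250 bases before to 50 bases after an annotated RefSeq start (GRCh38.p14), written 5′ to 3′ along the gene, with CpG dinucleotides in capitals. RefSeq promoter entries matched 8 of the 10 genes, and SPN and THY1 had none.
CD44, chr11:35138921-35139220, plus strand: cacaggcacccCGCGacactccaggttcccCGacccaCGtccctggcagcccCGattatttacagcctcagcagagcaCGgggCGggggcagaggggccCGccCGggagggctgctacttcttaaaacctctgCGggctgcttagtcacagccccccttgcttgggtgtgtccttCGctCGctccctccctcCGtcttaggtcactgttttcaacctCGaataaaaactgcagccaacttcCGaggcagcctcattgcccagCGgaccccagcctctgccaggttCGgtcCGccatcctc
CD226, upstream start, chr18:69956750-69957049, minus strand: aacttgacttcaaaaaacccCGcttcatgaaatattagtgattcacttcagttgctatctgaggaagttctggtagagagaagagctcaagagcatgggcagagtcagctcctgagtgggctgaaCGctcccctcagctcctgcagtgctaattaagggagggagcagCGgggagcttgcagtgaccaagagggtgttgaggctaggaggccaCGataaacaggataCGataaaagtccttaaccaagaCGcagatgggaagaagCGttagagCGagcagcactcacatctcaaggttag
CD226, downstream start, chr18:69947824-69948123, minus strand: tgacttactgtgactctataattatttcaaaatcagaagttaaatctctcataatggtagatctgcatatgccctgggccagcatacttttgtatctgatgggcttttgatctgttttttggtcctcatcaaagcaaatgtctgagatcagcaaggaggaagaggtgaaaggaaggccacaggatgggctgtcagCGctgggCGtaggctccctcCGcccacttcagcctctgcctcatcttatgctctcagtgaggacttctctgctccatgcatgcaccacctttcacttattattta
CD34, chr1:207911076-207911375, minus strand: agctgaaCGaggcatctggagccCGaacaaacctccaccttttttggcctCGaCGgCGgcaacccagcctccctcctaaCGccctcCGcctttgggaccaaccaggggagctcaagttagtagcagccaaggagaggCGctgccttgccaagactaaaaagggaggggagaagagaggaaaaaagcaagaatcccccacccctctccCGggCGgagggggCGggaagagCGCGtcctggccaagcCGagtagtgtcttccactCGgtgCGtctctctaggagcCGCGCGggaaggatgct
PTPRC, chr1:198638790-198639089, plus strand: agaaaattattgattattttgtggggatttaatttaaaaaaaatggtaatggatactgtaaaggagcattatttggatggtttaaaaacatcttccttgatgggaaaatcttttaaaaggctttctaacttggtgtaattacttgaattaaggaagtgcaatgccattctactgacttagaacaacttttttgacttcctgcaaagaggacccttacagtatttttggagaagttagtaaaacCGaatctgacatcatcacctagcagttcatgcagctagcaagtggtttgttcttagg

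The CD44 and CD34 windows were alike in base composition, with 18 and 19 CpG dinucleotides and 63.3% and 61.7% G + C, beside medians of 14 and 58.7% over 35116 promoter windows. The CD226 windows held 8 and 3 CpG, with 50.0% and 45.7% G + C. PTPRC held 1 CpG at 33.7% G + C, and 3.13% of windows had less G + C. Searched on both strands, these 5 windows held none of TGTGGT (core of RUNX sites, in 13.1% of all windows), AGATAA (bound by factors of the GATA family, in 10.3%), CCGGAA (bound by ETS factors, in 17.2%), CAATTA (bound by MSX homeodomains, in 7.38%) or TATAAA (of core promoters, in 11.5%). Only these exact strings were searched, so a window without a match may still hold other forms of such sites. Across all 12 windows of the 8 genes there were 2 matches. CCGGAA lay on the opposite strand of PROM1 at position 18 from the start numbered 3 from upstream. TATAAA lay on the opposite strand of PROCR at position -82. Among the windows not shown, CD33 and CD38, also listed near 0, held 3 and 4 CpG at 59.0% and 54.0% G + C. PTPRC was therefore not typical in G + C of the antigens listed near 0. PROCR held 9 CpG at 61.0%, and PROM1 held 18, 32, 24 and 6 CpG from its upstream to its downstream start.

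Some exonic sequence is shared with neighbouring genes, and the library kit did not mark strand. In GENCODE v29 gene models, 10.7% of THY1 exon bases overlap the opposite-strand transcript AP003396.5. That transcript was listed at 205 and 257 FPKM in WT and between 150 and 168 FPKM in MSX2-/- cells. The level of THY1 is therefore uncertain, by an amount that the share of bases does not give. For PROCR the shared part is 12.9% with AL356652.1, which was listed under 0.2 FPKM throughout. For CD44 it is 0.84% with CD44-AS1, for CD226 0.821% with DOK6, for SPN 0.515% with AC009086.2 and for PROM1 2.23% with FGFBP2.

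Partners and relatives of the antigens formed a list of 30 genes, of which 24 were tested, with 13 fold changes above 0, 11 below and a median of 0.02, beside 0.01 over all genes. None passed without the block. With it 2 were higher and 3 lower. The CD34 relative PODXL (podocalyxin) was at 43.6 and 134 FPKM in WT and at 145, 190, 140 and 205 FPKM in MSX2-/- cells (1.12, limma adjusted p = 0.353, 0.0359 with the block). SPP1 (osteopontin, a secreted ligand of CD44) was at 1.36 and 1.07 FPKM in WT and at 7.26, 2.19, 7.33 and 2.11 FPKM in MSX2-/- cells (1.21, adjusted p = 0.405, 0.0423 with the block). Both were above WT in all 4 libraries, PODXL against WT libraries that lay far apart and SPP1 mainly in replicate 1.

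Among the partners that were lower with the block were RDX and CD24. RDX (radixin, one of the proteins that tie CD44 and CD43 to the actin cortex) was at 99.0 and 100 FPKM in WT and at 59.5, 66.7, 68.8 and 57.4 FPKM in MSX2-/- cells (-0.65, adjusted p = 0.0600, 0.0111 with the block in limma). CD24, a GPI-anchored mucin-like antigen, was between 250 and 290 FPKM in WT and between 141 and 200 FPKM in MSX2-/- cells (-0.75, adjusted p = 0.102, 0.0326 with the block). In both genes the WT libraries were close and no MSX2-/- library reached them. The RDX relatives MSN (0.26) and EZR (-0.30) did not pass in either fit, and neither did the CD226 ligands. PVR was at 7.90 and 7.88 FPKM in WT and at 8.54, 12.2, 10.1 and 11.5 FPKM in MSX2-/- cells.

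Of 30 other surface antigens of blood progenitors, 25 were tested, with 14 fold changes above 0, 11 below and a median of 0.05. Without the block 1 was higher and none lower. With the block 7 were higher and 1 was lower. Among the 7, the integrin subunit ITGA6 rose by 1.18 (adjusted p = 0.00446), the complement inhibitor CD59 by 1.08 (0.0143) and the tetraspanin CD9 by 0.54 (0.0361). Their adjusted p without the block was 0.0814, 0.0524 and 0.165.

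Markers of other cell types moved with genotype too, and their part in the antigen differences was not tested. In RNA from pooled cells, more cells of a type and more RNA per cell cannot be told apart. Of 15 endothelial genes 3 were lower without the block, and 8 lower and 2 higher with it. The list's summed level was 3251 to 3343 FPKM in WT and 2386 to 2809 FPKM in MSX2-/- cells, and no gene of it was at 0. The junction gene CLDN5 fell by 2.28 (limma adjusted p = 0.0121), TIE1 by 0.58 (0.0382) and CDH5 by 0.65 (0.0453). ENG, a TGFβ co-receptor, rose by 0.70 with the block (adjusted p = 0.00977, 0.0524 without).

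Of 9 tested erythroid and megakaryocytic genes 8 had a fold change above 0 and 2 passed without the block, GYPB with 1.60 (limma adjusted p = 0.0100) and ALAS2, the erythroid heme synthesis enzyme, with 2.64 (0.0152). The summed level of the list was 105 to 123 FPKM in WT and 188 to 556 FPKM in MSX2-/- cells, with the higher values in replicate 1. Of 11 tested mesenchymal genes, 2 were higher without the block, COL1A1 by 2.30 (adjusted p = 0.0152) and TAGLN by 1.94 (0.0300), and 1 was lower, NT5E by -2.03 (0.0100). That list summed to 338 to 384 FPKM in WT and 518 to 609 FPKM in MSX2-/- cells, no gene of it at 0 in all libraries. The rise of this sum lay mainly in COL1A1 and TAGLN. COL1A1 was at 27.7 and 55.9 FPKM in WT and at 193 to 206 FPKM in MSX2-/- cells. TAGLN was at 15.8 and 33.1 FPKM in WT and at 88.3 to 94.2 FPKM in MSX2-/- cells. Among the tested mesenchymal genes 7 had a fold change above 0 and 4 below. CD44, which is also carried by mesenchymal cells, stood higher in the same 4 libraries, while NT5E stood lower in them and THY1 overlapped WT. Whether CD44 and this list are linked was not tested.

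None of the 5 tested myeloid and lymphoid genes passed in either fit, and their list summed to 11.8 to 12.6 FPKM in WT and 12.9 to 16.1 FPKM in MSX2-/- cells. FCGR1A and MS4A1 were listed at 0 in every library, but so was CD99, a surface gene of most cell types, so a listed 0 in this table can be a failed estimate. The pluripotent, hepatic and endodermal, and neural and epithelial lists had no gene that passed without the block. With it they had 2, 1 and 4 higher genes and none lower, with summed levels of 96.8 to 113, 206 to 313 and 269 to 449 FPKM in WT and of 123 to 139, 331 to 549 and 374 to 647 FPKM in MSX2-/- cells. The 4 of the neural and epithelial list were the epithelial genes KRT8, KRT18, KRT19 and CDH1. The hepatic and endodermal gene that passed was SOX17, which endothelial cells also use, at 165 and 241 FPKM in WT and between 201 and 353 FPKM in MSX2-/- cells. Without SOX17 that list summed to 41.3 and 71.8 FPKM in WT and to 228, 196, 116 and 13.1 FPKM in MSX2-/- cells, so the groups overlapped.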

How the data were processed

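The authors deposited a single table of FPKM values per gene for all 6 libraries, made from TruSeq libraries (a kit that does not mark strand). The submitters' processing notes name BWA, Bowtie, RSEM and hg19, and the series' own design text names TopHat, Cufflinks and BWA. Versions, annotation and the strand setting are not given in the sources used here, nor are read totals, so depth and counting error are unknown. Columns were tied to genotype, clone and replicate by their names. Clone numbers in the sample labels could not be matched to those in the table.

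Here FPKM values were transformed as log2(FPKM + 1), which understates the change of low genes, filtered at a mean of at least 0.5 FPKM and fitted in limma 3.58.1 (R 4.3.3) with an intensity trend over all 15895 rows. P-values are two-sided, with Benjamini-Hochberg adjustment over all of them and a threshold of 0.05. A symbol on more than 1 row was represented by the row of highest mean. The number pairing was checked by correlating, over 15895 genes, the replicate 2 minus replicate 1 differences of WT, clone 1 and clone 2. The correlation was 0.508 between WT and clone 1, 0.54 between WT and clone 2 and 0.636 between the clones. The labels also give the letter F to every replicate 1 and S to every replicate 2, without saying what the letters mark. All comparisons of clones with WT share the WT libraries. The exact permutation test on 2 against 4 libraries cannot go below 0.0667 and was not used. Promoter sequences are from RefSeq (GRCh38.p14), a later build than that of the expression files, and were matched by symbol.

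The antigens and gene lists were chosen with earlier results of these data known. Genes named were the 10 antigens, MSX2, PECAM1 and, from each list, up to 5 genes with the lowest p among those with an adjusted p under 0.05 without or with the block, of which those bearing on the antigens are given. Some genes that this rule selects are not reported here. PVR, MSN, EZR, FCGR1A, MS4A1, CD99 and the genes that overlap antigens were named after their values were seen. Alternatives changed the pseudocount (0.1), the filter, the scaling of libraries, the block, the number of groups and the libraries included. Fits with the block together with another filter, pseudocount or set of libraries were added after seeing the data.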

Additional observations from a re-analysis of the deposited data

Results flagged for a closer look

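CD34 drew attention because the MSX2-/- libraries of both clones were above WT in replicate 1 and below it in replicate 2. The difference of the genotype effect between the replicate numbers was -0.45 on the log2(FPKM + 1) scale, with an unadjusted p of 0.00514 and an adjusted p of 0.334 in limma, so it did not pass. That test holds no spread between WT libraries, since WT had 1 library per replicate number. PTPRC drew attention because both clone 1 libraries were above the WT library of their number and both clone 2 libraries were below it. Its clone difference was -0.098 on that scale, at values from 0 to 0.115 FPKM, and was not tested.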

How the results depend on the processing

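Of the antigens tested, 1 was higher in MSX2-/- cells without the replicate block. The count was 3 with the block, 3 with the block and a pseudocount of 0.1, 2 with a pseudocount of 0.1, 0 without the filter, 0 with 3 groups and 0 to 3 when a library was left out, without or with the block. The count of antigens lower was 0, and 1 (CD38) without the filter, with or without the block. In the other lists 5 genes were higher and 4 lower. With the block 25 were higher and 13 lower, without the filter 2 and 2, and with a library left out 1 to 4 higher and 0 to 2 lower. Each clone had 2 antigens higher with the block against 0 without. For replicate 2 against replicate 1, the count of 1 higher antigen was 0 without the filter. CD44, SPN and CD226 kept their direction in all 21 alternatives and passed in 15, 4 and 9 of them.

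Small differences changed sign when a library was left out: CD34 by genotype ran from -0.33 to 0.41 (-0.18 with the block and without WT replicate 1), PROM1 from -0.15 to 0.42, and by replicate THY1 from -0.024 to 0.28 and PROCR from -0.071 to 0.058. Between clones, CD34 was -0.0034 and PROCR -0.018 after rescaling, and PROM1 was -0.19 with a pseudocount of 0.1. The cause of these changes was not tested. With a library left out, a group of 1 was assumed to vary like the others.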
